A study of Mus musculus with 15 samples.

Results

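The genes described here encode the proteins of the cytoplasmic ribosome. They were taken as every protein-coding gene whose mouse symbol is Rpsa, Rplp0, Rplp1 or Rplp2, or is Rpl or Rps followed by a number and an optional ending a, x or l. The rule took 80 of the 55487 genes in each table, 31 of the small subunit and 49 of the large subunit, on 19 chromosomes. Left ventricles of 15 male mice were sampled at 225 days of age from the midline of the free wall, and their RNA was sequenced. The sources differ on the anaesthetic, for which the sample titles name isoflurane and the treatment protocol gives ketamine with xylazine in the same animals. Of these, 7 carried a Col4a5 mutation, which the labels give as a knockdown and the study's design text as a knockout, and had chronic kidney disease. The other 8 were wild-type littermates housed with them on the same normal chow. The question behind the study is what this kidney disease does to the heart. Libraries were made from total RNA after removal of ribosomal RNA, so that the ribosome is seen here through the messages of its proteins only.

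A cytoplasmic ribosome is built from a small subunit, which reads the message, and a large subunit, which joins the amino acids, and each is a folded ribosomal RNA covered with proteins that are nearly all present once. Most messages of these proteins begin with a C followed by a run of pyrimidines, the 5′ terminal oligopyrimidine (TOP) tract, through which the growth-regulating kinase complex mTORC1 and the protein Larp1 set their translation and stability. A few of the proteins have a paralog used in particular tissues, and in heart and skeletal muscle Rpl3l, a copy of Rpl3, takes the place of Rpl3 beside the catalytic centre of the large subunit.

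RefSeq start sites on GRCm38.p6 were given for 60 of the 80 members, in 72 promoter entries. They were searched on the transcribed strand for a C followed by at least 4 bases that are each C or T. The base at the annotated start was a C followed by at least 4 such bases in 13 of the 72 entries, or 18.1%, against 823 of the 32851 entries of all genes, or 2.51%. A run that began between 5 bases before and 15 bases after the start was found in 40 entries of members, or 55.6%, and in 28.9% of the entries of all genes. The windows below show 8 members whose values are described further on, picked to show how the entries differ. In Rps27, Rps10 and Rps6 a C at the start itself is followed by such a run, and the whole run begins 1 to 3 bases earlier. In Rps12, Rpl13a and Rpl3l a run begins at base 3 to 10, with the start counted as base 1, and in Rps4x and Rps15 none was found in the window searched. Each runs from 10 bases before the annotated start to 20 bases from it, 5′ to 3′ on the strand of the gene, and capitals mark the run that was found. A match is a description of the letters and not a mapped start.
Rps27, chr3:90213629-90213658, minus strand: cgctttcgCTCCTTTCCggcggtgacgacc
Rps10, chr17:27635225-27635254, minus strand: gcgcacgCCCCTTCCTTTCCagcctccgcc
Rps6, chr4:86857348-86857377, minus strand: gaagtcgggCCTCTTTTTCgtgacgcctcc
Rps12, chr10:23787190-23787219, minus strand: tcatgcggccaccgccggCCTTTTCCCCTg
Rpl13a, chr7:45128726-45128755, minus strand: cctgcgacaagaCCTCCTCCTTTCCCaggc
Rpl3l, chr17:24727816-24727845, plus strand: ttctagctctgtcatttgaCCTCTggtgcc
Rps4x, chrX:102189372-102189401, minus strand: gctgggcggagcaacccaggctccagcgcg
Rps15, chr10:80292421-80292450, plus strand: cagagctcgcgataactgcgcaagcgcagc

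Total counts ran from 54263014 to 65519279 in kidney disease libraries, against 48748379 to 57962094 in wild-type libraries. Col4a5 had 522 to 1111 counts in the kidney disease libraries and 2442 to 3620 counts in the wild-type libraries, a log2 change of -2.08 with a standard error (SE) of 0.11 (adjusted p = 3e-09, edgeR's quasi-likelihood test with Benjamini-Hochberg adjustment), so the targeted gene went with the labels. The gene with the most counts was Ttn, which encodes titin, in 3 kidney disease libraries (4, 5, 7) and in 2 wild-type libraries (6, 7), while the mitochondrial gene mt-Co1 led the other 10. Kidney disease 6 and wild type 7 stood at the upper and lower ends of the family. Its share of all counts, its median change, the ratio of Rpl3l to Rpl3 and the changes of single members are therefore also given without 1 or both of them. The cardiomyocyte markers Myh6, Tnnt2, Tnni3, Actc1, Myl2, Myl3, Mybpc3, Ryr2, Ttn and Pln were present at high level in every library, with sums of 107104 to 127146 CPM (counts scaled to the library size) in kidney disease, against 124482 to 132712 CPM in wild type.

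The ribosomal protein genes together took a slightly larger share of all counts in the hearts of mice with kidney disease, but the animals of both groups overlapped. The share had a lowest, median and highest value of 1.07%, 1.1% and 1.67% in kidney disease, against 0.865%, 0.981% and 1.18% in wild type. Its mean was 1.2% ± 0.216 in kidney disease (SD, n = 7) and 1.0% ± 0.107 in wild type (SD, n = 8), a difference of 0.196 percentage points. Kidney disease 6, at 1.67%, lay above every other library, and the other 6 kidney disease libraries lay between 1.07% and 1.21%. The difference was 0.116 points without kidney disease 6 and 0.0968 points without both kidney disease 6 and wild type 7. As a share of nuclear-encoded counts the family took 1.36% ± 0.25 in kidney disease and 1.15% ± 0.127 in wild type (SD, n = 7 and n = 8).

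**Figure D1:**
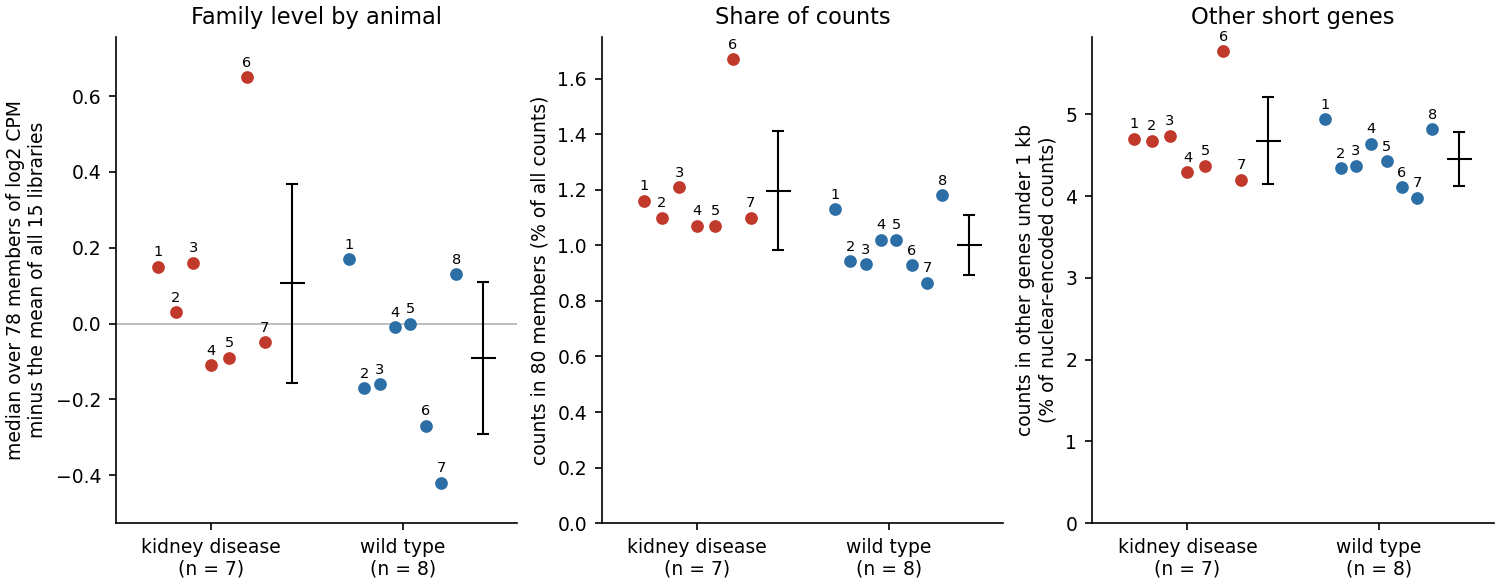
Each point is 1 animal with its replicate number, kidney disease on the left and wild type on the right of each panel, and bars give the mean ± SD. The left panel plots the median over 78 ribosomal protein genes of the log2 CPM minus the gene's mean over 15 libraries. The middle panel plots the percent of all counts in all 80 genes of the family. The right panel plots the percent of nuclear-encoded counts in other genes with under 1 kb of exon. Kidney disease 6 is highest in all 3 panels, at 0.65, 1.67% and 5.77%, and wild type 7 is lowest, at -0.42, 0.865% and 3.98%.

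The members moved together from animal to animal. For each of the 78 members that passed the filter on low counts, the log2 CPM in a library was set against the gene's own mean over the 15 libraries. The median of these deviations was highest in kidney disease 6, at 0.65, and 77 of the 78 members lay above their mean there. It lay at 0.15, 0.03 and 0.16 in kidney disease 1, 2 and 3, and at -0.11, -0.09 and -0.05 in kidney disease 4, 5 and 7. In wild type it was 0.17 in replicate 1 and 0.13 in replicate 8, between -0.17 and 0.0 in replicates 2 to 5, -0.27 in replicate 6 and -0.42 in replicate 7, where 1 member lay above its mean. The median deviation of a library carried 82.7% of the sum of squared deviations of all members, and 93.9% without Rpl24, Rps10 and Rpl13a. The median comes from the same members. Both percentages include kidney disease 6 and wild type 7, whose medians lie farthest from 0, and are not given without them. Kidney disease 6 was the highest of all 15 libraries in 76 members, and wild type 7 the lowest in 74.

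**Figure D2:**
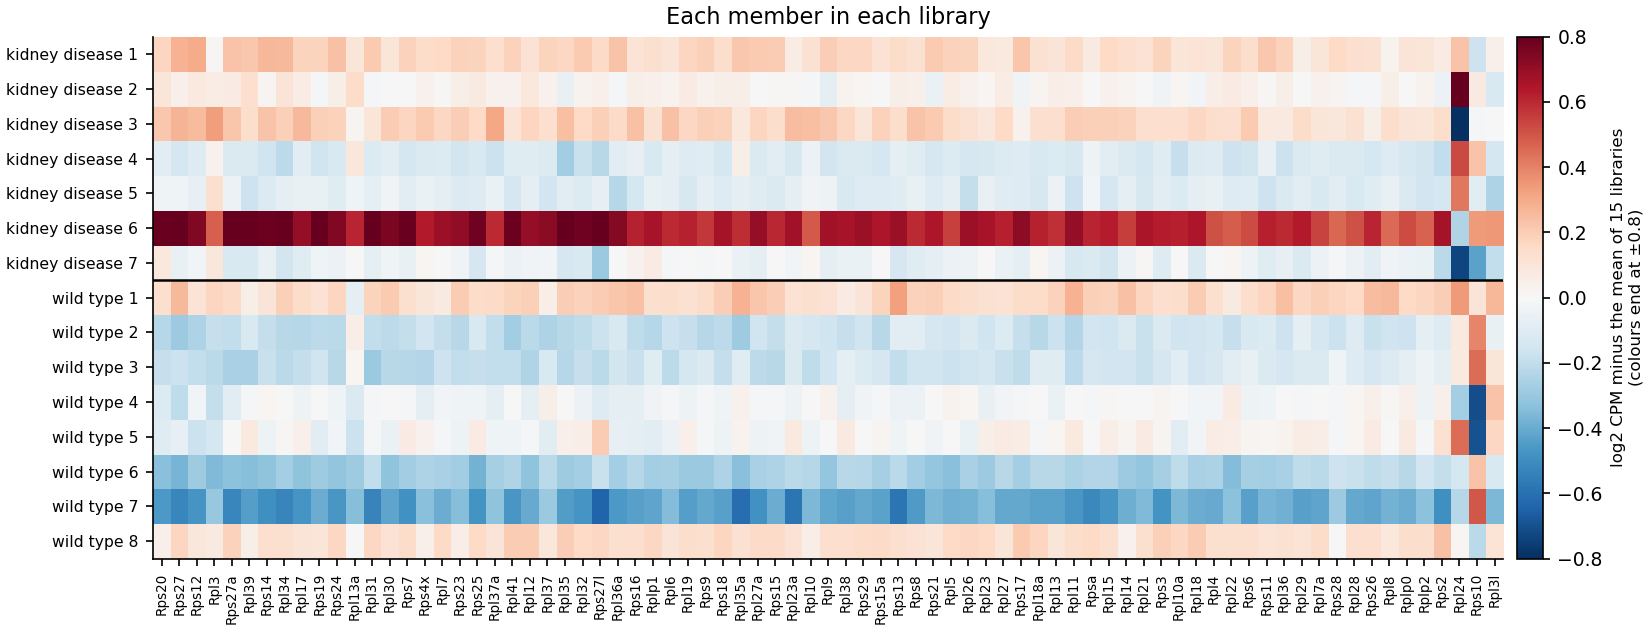
Rows are the 15 libraries, kidney disease above the line and wild type below it, and columns are 77 of the 78 members tested, ordered by their change. Colour gives the log2 CPM minus the gene's mean over 15 libraries and ends at 0.8 in either direction. Whole rows share a colour, red in kidney disease 6 (median 0.65) and blue in wild type 7 (median -0.42), while Rpl24, Rps10 and Rpl3l depart from their rows.

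Other short messages went with the family. Nuclear genes outside the family with under 1 kb of exon took 4.68% ± 0.526 of nuclear-encoded counts in kidney disease and 4.45% ± 0.332 in wild type (SD, n = 7 and n = 8). They too were highest in kidney disease 6, at 5.77%, and lowest in wild type 7, at 3.98%. This set still holds ribosomal protein genes that the symbol rule leaves out, such as Fau with 961 and Rps3a1 with 977 bases of exon. By the same measure the members themselves ran from 383 bases in Rpl36 to 6270 in Rps15a, many of them above 1 kb. In an edgeR fit with an offset for gene length in each library, the median log2 change of the members was 0.16, and 1 member, Rpl3, was called higher where 1.15% of all genes were. The offset used this exon length, which does not stand for the length of the messages.

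No member was called changed between the groups. In the edgeR quasi-likelihood fit over 20718 genes with Benjamini-Hochberg adjustment, 0 of 78 members were called higher and 0 lower at an adjusted p under 0.05, where 0.811% of all genes tested were called higher and 0.473% lower, 1.28% in all. At an unadjusted p under 0.05, 23 members were higher in kidney disease, or 29.5%, against 6.84% of all genes, and 0 were lower, against 5.55% of all genes. DESeq2 called 1 member higher, Rpl3, with a background of 2.21% of genes, and limma-voom called 0. The smallest adjusted p of a member in the edgeR fit was 0.093, for Rpl3. No member had every kidney disease library above every wild-type library, as 0.386% of all genes tested did.

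The fitted changes were small, narrow in range and almost all of 1 sign. The log2 change was positive in 76 of the 78 members and negative in 2, Rpl3l and Rps10, and it ran from -0.09 to 0.35. Its median was 0.21 over all 78, 0.21 over the 31 small-subunit members and 0.21 over the 47 large-subunit members tested, beside 0.0042 over all genes tested. Changes between 0.1 and 0.3 made up 68 of the 78. Because the members share their libraries, this common sign is not 76 separate observations. The median was 0.10 without kidney disease 6, 0.16 without wild type 7 and 0.05 without both, where 70 members had a positive and 8 a negative change, from -0.21 to 0.22. Within the libraries led by mt-Co1, 4 of kidney disease and 6 of wild type, it was 0.27, and within those led by Ttn, 3 of kidney disease and 2 of wild type, it was 0.25. The first set holds kidney disease 6 and the second wild type 7, and neither set was fitted without that library. A fit with the leading gene as a term called 10 members higher (Rpl10, Rps4x, Rps27, Rps20, Rps9, Rps12, Rps27a, Rpl3, Rps14 and Rpl17) and 0 lower, where it called 1.62% of all genes higher. The leading gene was read from the same counts, and this fit held kidney disease 6 and wild type 7. The libraries led by Ttn had the lowest median deviations of their group, -0.11 to -0.05 in kidney disease and -0.42 and -0.27 in wild type.

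**Figure D3:**
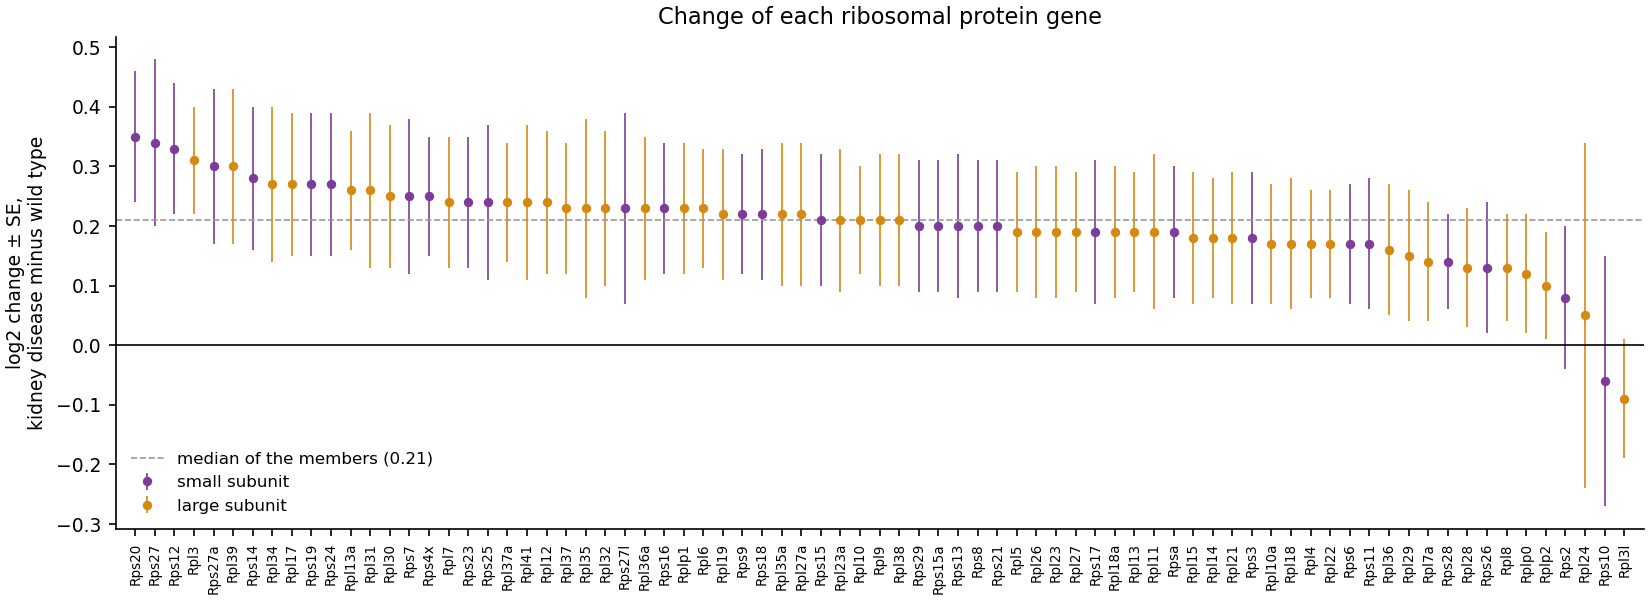
Points are the log2 change ± SE of 77 of the 78 members tested, kidney disease minus wild type, in descending order. Purple marks the small subunit and orange the large subunit, and the dashed line is the median of all 78, 0.21. Most points lie between 0.1 and 0.3 in both subunits, with Rpl3l (-0.09) and Rps10 (-0.06) below 0.

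Among small-subunit members, Rps20, Rps12, Rps4x and Rps27 had the smallest p. Rps20, a protein of the head of the small subunit, had a lowest, median and highest level of 103, 117 and 188.8 CPM in kidney disease, against 79.3, 98.5 and 120 CPM in wild type. The groups overlapped, and kidney disease 6 alone was above 127 CPM. The log2 change was 0.35 with an SE of 0.11 (adjusted p = 0.16, edgeR's quasi-likelihood test with Benjamini-Hochberg adjustment), and 0.22 without kidney disease 6. Rps12, which takes part in cell competition in Drosophila, had 137, 155 and 246 CPM in kidney disease, against 106, 129 and 159 CPM in wild type. Its change was 0.33 with an SE of 0.11 (adjusted p = 0.19, the same test), and all 7 kidney disease libraries were above the wild-type mean. It was 0.22 without kidney disease 6.

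Rps4x, the X-linked copy of the Rps4 protein, averaged 197.5 ± 37.9 CPM in kidney disease and 167 ± 18.2 CPM in wild type (SD, n = 7 and n = 8). The change was 0.25 with an SE of 0.10 (adjusted p = 0.28, edgeR's quasi-likelihood test), and the ranges of 165 to 277 CPM in kidney disease and of 142 to 191.5 CPM in wild type overlapped. Rps27, a zinc-binding protein of the small subunit, averaged 79.5 ± 21.0 CPM in kidney disease and 63.0 ± 11.8 CPM in wild type (SD, n = 7 and n = 8). Its change was 0.34 with an SE of 0.14 (adjusted p = 0.29, the same test). Without kidney disease 6 the change was 0.14 for Rps4x and 0.20 for Rps27. Rps14 and Rps19, in which loss of 1 copy is known from human bone marrow failure disorders, had changes of 0.28 and 0.27, and neither passed the test. Rps6, the substrate of the S6 kinases, had a change of 0.17 with an SE of 0.10. Without kidney disease 6 the changes were 0.15 for Rps14, 0.13 for Rps19 and 0.09 for Rps6. Without both kidney disease 6 and wild type 7 they were 0.18 for Rps20, 0.18 for Rps12, 0.11 for Rps4x and 0.15 for Rps27.

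Among large-subunit members, Rpl3, Rpl13a, Rpl10 and Rpl37a had the smallest p. Rpl10, an X-linked protein added late in the assembly of the subunit, had 159, 166 and 231 CPM in kidney disease (lowest, median, highest), against 128, 155 and 180 CPM in wild type. The groups overlapped, and the change was 0.21 with an SE of 0.09 (adjusted p = 0.29, edgeR's quasi-likelihood test). Rpl37a averaged 96.3 ± 18.5 CPM in kidney disease and 81.7 ± 9.85 CPM in wild type (SD, n = 7 and n = 8), a change of 0.24 with an SE of 0.10 (adjusted p = 0.33, the same test). Both changes were 0.14 without kidney disease 6. Rpl39, a small protein of the exit tunnel, averaged 45.6 ± 13.9 CPM in kidney disease and 36.9 ± 4.95 CPM in wild type (SD, n = 7 and n = 8), a change of 0.30 with an SE of 0.13 (adjusted p = 0.36, the same test) and 0.14 without kidney disease 6. Rpl5 and Rpl11, which with 5S RNA bind and inhibit Mdm2 when ribosome assembly fails, both had a change of 0.19, and neither passed the test. The stalk proteins, which recruit the elongation factors, had changes of 0.23 for Rplp1, 0.12 for Rplp0 and 0.10 for Rplp2, and none passed. Without kidney disease 6 the changes were 0.11 for Rpl5, 0.07 for Rpl11, 0.13 for Rplp1, 0.03 for Rplp0 and 0.02 for Rplp2. Without both kidney disease 6 and wild type 7 they were 0.11 for Rpl10, 0.12 for Rpl37a and 0.10 for Rpl39, and -0.01 for Rplp0 and -0.02 for Rplp2.

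Members differed far more in level than in change. Per kilobase of exon and averaged over the 15 libraries, Rplp1 had the highest level, 685 CPM per kb, then Rpl36 with 441 and Rps15 with 335 CPM per kb. The median member had 65.6 CPM per kb, and 50 of the 78 lay within 2-fold of it. The length used counts every annotated exon base of a gene, so it can exceed the length of a message. It was 499 bases for Rplp1, 383 for Rpl36 and 630 for Rps15, but 6270 for Rps15a, and the order of the members depends on it. By CPM alone Rplp0, at 547 in kidney disease and 502 in wild type, stood above Rplp1. Rplp1 averaged 372 ± 74.3 CPM in kidney disease and 316 ± 43.3 CPM in wild type, and Rps15 averaged 227 ± 42.6 CPM in kidney disease and 196.5 ± 28.1 CPM in wild type (SD, n = 7 and n = 8). Rpl36 averaged 179 ± 35.4 CPM in kidney disease and 160 ± 22.7 CPM in wild type, and 81.1% of its 50-base words also occur in other genes. Without kidney disease 6 the log2 change was 0.11 for Rps15 and 0.05 for Rpl36, against 0.21 and 0.16 in all libraries. Rpl10l, a testis copy of Rpl10, had 0 counts in every kidney disease library and 0 to 2 in the wild-type libraries. Rpl39l, a copy of Rpl39 also known from testis, had 0 to 12 counts in kidney disease, against 0 to 6 in wild type, and neither of these copies passed the filter on low counts.

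**Figure D4:**
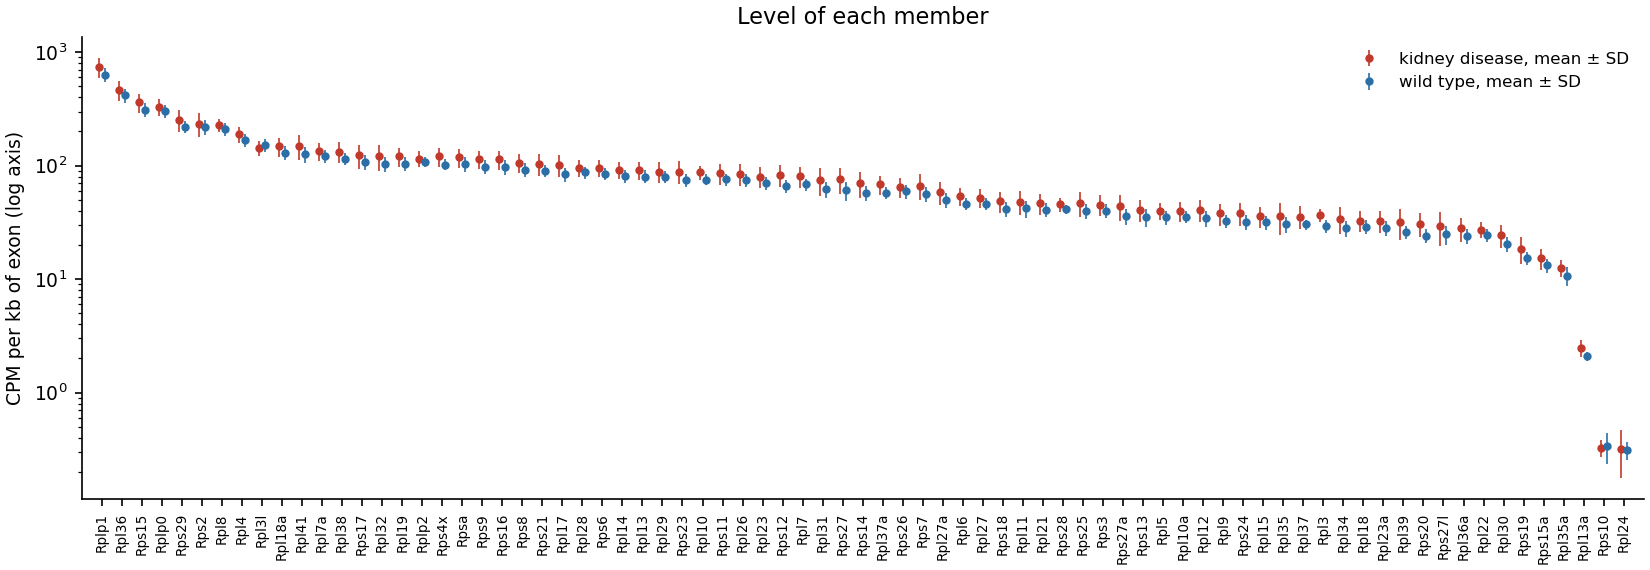
Points give the mean ± SD of 77 of the 78 members tested, in CPM per kilobase of exon on a log axis, kidney disease in red to the left of wild type in blue, ordered by the mean over 15 libraries. Rplp1 (685), Rpl36 (441) and Rps15 (335) lead, most members lie near the median of 65.6, and Rpl13a (2.28), Rps10 (0.332) and Rpl24 (0.315) stand far below the rest. The order depends on the exon length, which counts every annotated exon base of a gene.

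The 3 lowest members that passed the filter were Rpl24, Rps10 and Rpl13a, with 0.315, 0.332 and 2.28 CPM per kb, below 11.6 CPM per kb for the next, Rpl35a. They were also the 3 members with over 20% of their exon bases on the same strand of another annotated gene. The overlap was 47% with Gm28037 for Rpl24, 20.6% with RPS10-NUDT3 for Rps10 and 35.4% with Gm45713 for Rpl13a, and all 3 overlapping genes had 0 counts in every library. The part of the overlap in these low values was not tested, and the 3 values are uncertain as levels of the messages. Rpl24 and Rps10 also left the family's pattern, with an SD of 0.61 and 0.49 on the log2 scale after the library median was taken off, where most members had at most 0.10. Rpl24 had 7 to 31 counts in kidney disease, against 14 to 21 in wild type, and its change of 0.05 had an SE of 0.29. Rps10 had 33 to 61 counts in kidney disease, against 23 to 56 in wild type, and its change of -0.06 had an SE of 0.21. Rpl13a, known from human cells as part of a complex that silences inflammatory messages, averaged 5.27 ± 0.901 CPM in kidney disease and 4.41 ± 0.426 CPM in wild type (SD, n = 7 and n = 8), a change of 0.26 with an SE of 0.10 (adjusted p = 0.28, edgeR's quasi-likelihood test) and of 0.16 without kidney disease 6. Without that library the change was 0.10 for Rpl24 and -0.12 for Rps10. Another 6 members (Rpl23a, Rpl30, Rpl31, Rpl35, Rpl5 and Rps25) had over 20% of exon bases opposite another gene, which are uncertain because the strand used in counting is not given in the sources used here.

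The family has many processed pseudogenes. Of the 80 members, 77 share 50-base words, read on either strand, with other genes of any type, with a median of 23.6%. The highest share was 84.0% in Rpl35, whose first partner was Wdr38 on the opposite strand, and 21.8% of its words occur in pseudogenes. Counting pseudogenes only, the highest share was 81.1%, in Rpl36. Rpl3l and Rpl39l share none. The 294 pseudogenes with an -ps symbol held counts equal to 2.25% to 2.63% of the members' counts in kidney disease, against 2.39% to 2.57% in wild type. Of the 128 that passed the filter, 0 were called by edgeR, DESeq2 or limma-voom, and their median log2 change was 0.15. At an unadjusted p under 0.05 in edgeR, 11 of the 128 were higher, where 6.84% of all genes tested were.

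Of the 6 paralog pairs compared, Rpl3 and its muscle paralog Rpl3l differed most in their ratio between the groups. Rpl3 lies at chr15:80077791-80091868 on the minus strand and Rpl3l at chr17:24727820-24736143 on the plus strand (GRCm38). Rpl3 had 103, 109 and 143 CPM in kidney disease (lowest, median, highest), against 80.2, 90.1 and 116 CPM in wild type. The groups overlapped only through wild type 1, at 116 CPM, and wild type 8, at 108 CPM, and all 7 kidney disease libraries were above the wild-type mean. Rpl3 averaged 116 ± 14.9 CPM in kidney disease and 93.6 ± 12.2 CPM in wild type (SD, n = 7 and n = 8), a log2 change of 0.31 with an SE of 0.09 (adjusted p = 0.093, edgeR's quasi-likelihood test). It was 0.25 without kidney disease 6 (adjusted p = 0.17, the same test) and 0.22 without both that library and wild type 7. Rpl3 was called by DESeq2 (adjusted p = 0.031) and in the edgeR fit without wild type 1 (adjusted p = 0.049), where 0.475% of all genes were called higher. Over 27 alternatives its adjusted p ran from 0.022 to 0.27 and its change from 0.22 to 0.41. Rpl3l had 202, 221 and 306 CPM in kidney disease (lowest, median, highest), against 187.1, 258 and 289 CPM in wild type. Kidney disease 6 had the highest value of its group in Rpl3l as in Rpl3, and 1 of 7 kidney disease libraries was above the wild-type mean. The change of Rpl3l was -0.09 with an SE of 0.10 (adjusted p = 0.80, edgeR's quasi-likelihood test). It was -0.16 without kidney disease 6, -0.14 without wild type 7 and -0.21 without both.

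The ratio of both genes within a library, per kilobase of exon, does not depend on library scaling. Rpl3l exceeded Rpl3 in all 15 hearts, at ratios of 3.49, 3.99 and 4.62 in kidney disease (lowest, median, highest), against 4.35, 5.12 and 6.05 in wild type. The size of these ratios rests on exon lengths of 3175 bases for Rpl3 and 1643 for Rpl3l, which count every annotated exon base. By CPM alone Rpl3l averaged 234.7 and Rpl3 115.6 in kidney disease, against 249.2 and 93.6 in wild type. The lengths are the same in every library, so the difference of the log2 ratio between the groups does not depend on them. Only kidney disease 1, at 4.62, lay above the lowest wild-type library, wild type 7 at 4.35. The log2 ratio averaged 1.97 ± 0.14 in kidney disease and 2.36 ± 0.16 in wild type (SD, n = 7 and n = 8), a difference of -0.39. It was lower than the wild-type mean in 7 of 7 kidney disease libraries (two-sided exact permutation p = 0.00062, adjusted p = 0.0037 over 6 paralog pairs, where 0.00016 is the smallest p that 6435 splits can give). Left out 1 at a time, the libraries gave differences from -0.43 to -0.36, and without both kidney disease 6 and wild type 7 the difference was -0.44. Within the libraries led by mt-Co1 it was -0.37 (exact permutation, adjusted p = 0.029), and within those led by Ttn it was also -0.37, where 3 against 2 libraries cannot give a p under 0.10.

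Seen as a composition, Rpl3l made up 79.6% ± 1.54 of the sum of both genes per kilobase in kidney disease and 83.7% ± 1.52 in wild type (SD, n = 7 and n = 8). These percentages, and the sum, depend on the exon lengths used. The sum itself was 179 ± 25.3 CPM per kb in kidney disease and 181 ± 23.6 CPM per kb in wild type. Rpl3 had 36.4 ± 4.7 and Rpl3l 143 ± 21.4 CPM per kb in kidney disease, and Rpl3 had 29.5 ± 3.83 and Rpl3l 152 ± 20.8 CPM per kb in wild type. Against the median member of its own library, Rpl3l stood at a log2 difference of 0.855 ± 0.107 in kidney disease and 1.16 ± 0.0965 in wild type, and Rpl3 at -0.163 ± 0.17 in kidney disease and -0.248 ± 0.11 in wild type. The groups thus differed by -0.307 for Rpl3l and by 0.0846 for Rpl3 against the median member. The members themselves had a median change of 0.21. On the CPM scale the change was 0.31 for Rpl3 and -0.09 for Rpl3l, neither of which passed the edgeR test. The part of each gene in the lower ratio thus depends on the reference used. Ratios of Rpl3l to single members other than Rpl3 were not tested. Of the 50-base words of Rpl3, 35.0% also occur in other genes, and of those of Rpl3l none do. In a piece of ventricle, a change in the number of cells of a type and a change in RNA per cell cannot be told apart, and Rpl3l is a gene of muscle cells while Rpl3 is used in all cells.

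**Figure D5:**
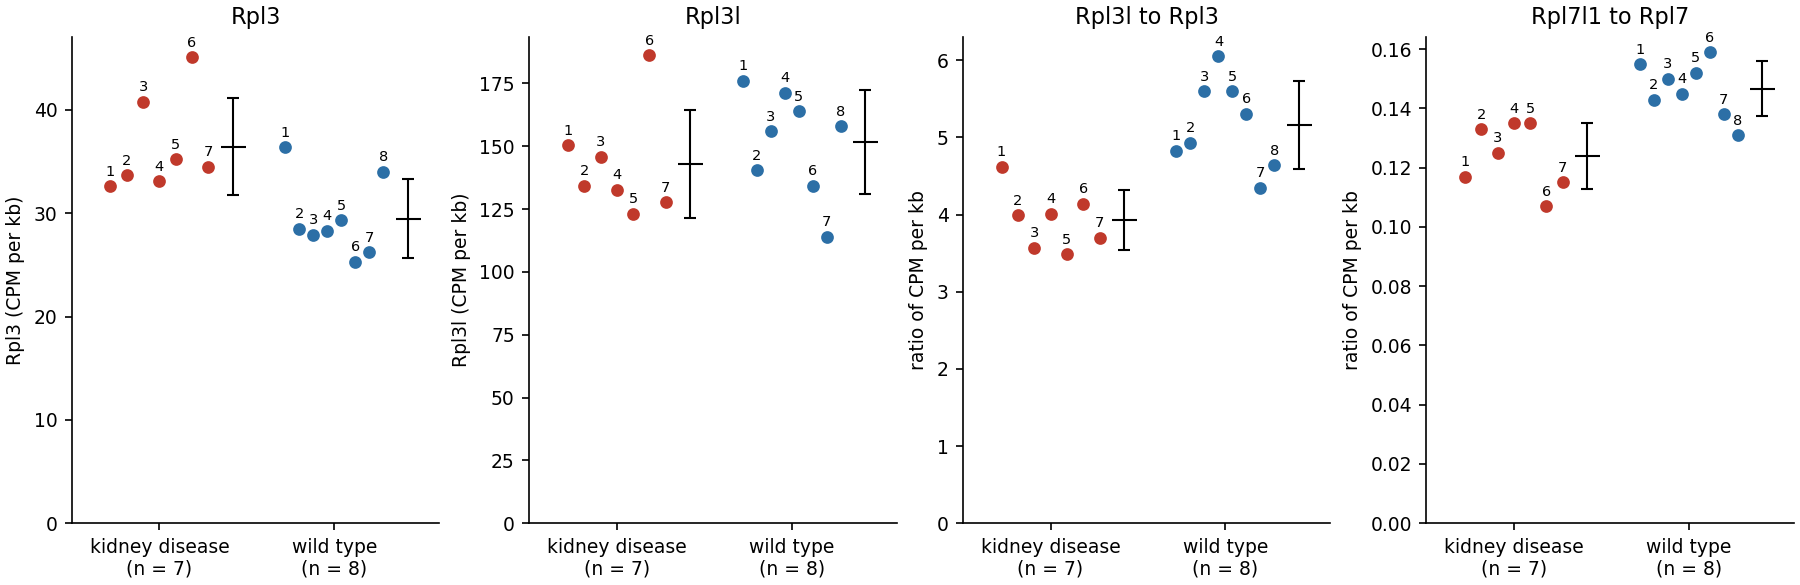
Points are animals with their replicate numbers, kidney disease on the left and wild type on the right of each panel, and bars give the mean ± SD. The panels show Rpl3 and Rpl3l in CPM per kilobase and the ratios of Rpl3l to Rpl3 and of Rpl7l1 to Rpl7. The ratio of Rpl3l to Rpl3 runs from 3.49 to 4.62 in kidney disease, against 4.35 to 6.05 in wild type, and that of Rpl7l1 to Rpl7 from 0.107 to 0.135 in kidney disease, against 0.131 to 0.159 in wild type.

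Of 8 paralog pairs listed, 6 had enough counts to compare, and 1 more differed between the groups. Rpl7l1, a copy of Rpl7 known from human assembly intermediates of the large subunit and outside the symbol rule, had a ratio to Rpl7 of 0.107, 0.125 and 0.135 in kidney disease (lowest, median, highest), against 0.131, 0.147 and 0.159 in wild type. The log2 ratio averaged -3.02 ± 0.13 in kidney disease and -2.77 ± 0.09 in wild type (SD, n = 7 and n = 8), a difference of -0.25, with 7 of 7 kidney disease libraries below the wild-type mean (two-sided exact permutation p = 0.0012, adjusted p = 0.0037). Here Rpl7 went with the family, at a log2 change of 0.24 with an SE of 0.11, and Rpl7l1 did not, at -0.02 with an SE of 0.09. Without kidney disease 6 the change was 0.12 for Rpl7 and -0.09 for Rpl7l1. The difference of the ratio was -0.21 without kidney disease 6, -0.28 within the libraries led by mt-Co1 (exact permutation, adjusted p = 0.029) and -0.21 within those led by Ttn, where the test cannot pass.

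The ratio of Rps27l, a p53-responsive copy of Rps27, to Rps27 differed by -0.12 (exact permutation, adjusted p = 0.15), and by -0.18 without kidney disease 6 and wild type 7 (adjusted p = 0.029, the same exact permutation test). Rps27l itself averaged 23.7 ± 7.92 CPM in kidney disease and 20.2 ± 3.78 CPM in wild type (SD, n = 7 and n = 8), with 40.7 CPM in kidney disease 6, and its log2 change of 0.23 was 0.05 without that library and -0.02 without wild type 7 as well. The log2 ratio differed by -0.14 for Rps4l, annotated as a transcribed pseudogene, to Rps4x, by 0.01 for Rpl22l1 to Rpl22 and by -0.10 for Rpl36al to Rpl36a, with adjusted p of 0.59, 0.91 and 0.67 by the same exact permutation test. Rpl36al had 25 to 62 counts in a library, and its level is uncertain. Of its exon bases, 24.5% lie on the same strand of another gene, Gm49383. The pairs with Rpl39l and Rpl10l had too few counts.

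Ribosomal proteins that the symbol rule leaves out stood near the members. Of Fau, which is made as a fusion to ubiquitin-like sequence, Rack1, a scaffold on the small subunit, and Rps3a1, Rpl36al, Rpl7l1 and Rpl22l1, 5 of 6 had a positive log2 change, and the median was 0.19. EdgeR, DESeq2 and limma-voom called 0 of the 6, and 2 were higher at an unadjusted p under 0.05 in edgeR, where 6.84% of all genes tested were. The largest was Fau, with 115 ± 27.2 CPM in kidney disease and 89.3 ± 12.6 CPM in wild type (SD, n = 7 and n = 8), a change of 0.36 with an SE of 0.12 (adjusted p = 0.17, edgeR's quasi-likelihood test). Rack1 had a change of 0.20 and did not pass. Without kidney disease 6 the changes were 0.24 for Fau and 0.12 for Rack1, and without wild type 7 as well they were 0.19 and 0.07.

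Other genes whose messages start with a TOP tract were measured as a list of 23, of which 22 were tested. Of these, 21 had a positive change with a median of 0.12. Without both kidney disease 6 and wild type 7, the changes of Eef1d, Eef1g, Eif3f, Eif3h, Eif3l, Hnrnpa1 and Snhg6 were negative, from -0.13 to -0.01. Those of the others tested were positive, from 0.01 to 0.43. In all libraries together 1 gene of the list rose, where 0.811% of all genes tested were called higher. It was Eef1a1, the elongation factor that brings aminoacyl-tRNA to the ribosome, with 683 ± 70.3 CPM in kidney disease and 495 ± 34.0 CPM in wild type (SD, n = 7 and n = 8). Its levels in kidney disease, 596 to 802 CPM, lay wholly above those in wild type, 445 to 546 CPM, and the log2 change was 0.47 with an SE of 0.07 (adjusted p = 0.0041, edgeR's quasi-likelihood test). Gas5, a host transcript of small nucleolar RNAs, averaged 17.7 ± 1.7 CPM in kidney disease and 14.6 ± 1.37 CPM in wild type, a change of 0.28 with an SE of 0.07 that did not pass (adjusted p = 0.058, the same test) and was called by DESeq2. Without both kidney disease 6 and wild type 7 the changes were 0.43 for Eef1a1 (adjusted p = 0.0019, edgeR's quasi-likelihood test) and 0.28 for Gas5 (adjusted p = 0.026, the same test).

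Genes that build or regulate ribosomes had medians near that of all genes tested. Of 41 tested genes of ribosome biogenesis, among them Polr1a of RNA polymerase I at -0.16 and Eif6 at 0.16, 21 had a positive and 20 a negative change, with a median of 0.00. EdgeR, DESeq2 and limma-voom called 0, and at an unadjusted p under 0.05 in edgeR 2 were higher and 1 lower. Of 17 genes of mTORC1 and of TOP regulation, 12 had a negative change, with a median of -0.07, and the kinase complex subunit Rptor and the initiation factor Eif4g1 had changes of -0.16 and -0.17. The same 3 tools called 0. At an unadjusted p under 0.05 in edgeR 3 were lower and 0 higher, where 5.55% of all genes tested were lower and 6.84% higher. Of 10 genes of ribosome stress and quality control the median was 0.01, and edgeR called 0, with 1 lower at an unadjusted p under 0.05. That gene was Map3k20, a kinase that senses stalled ribosomes, with a change of -0.24, and DESeq2 called it lower. Of the 78 mitochondrial ribosomal protein genes, 77 were tested, 49 had a positive and 28 a negative change, and the median was 0.03. The 3 tools called 0 of them, and at an unadjusted p under 0.05 in edgeR 0 were higher and 1 lower. Their sum too was highest in kidney disease 6, at 4108 CPM in a range of 2659 to 4108 CPM in kidney disease, and lowest in wild type 7, at 2243 CPM in a range of 2243 to 3403 CPM in wild type. The same libraries thus stood at the upper and lower ends of the mitochondrial and of the cytoplasmic ribosomal protein genes.

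Markers of other cell types moved with the groups. The 10 macrophage markers summed to 402 to 575 CPM in kidney disease, against 284 to 350 CPM in wild type. Of the 10, edgeR called 8 higher, where 0.811% of all genes tested were. Kidney disease 6 had the highest sum, 575 CPM, and wild type 7 the lowest, 284 CPM. The 7 B cell markers summed to 17.6 to 28.3 CPM in kidney disease, against 7.53 to 15.8 CPM in wild type, and 5 rose. The 8 fibroblast markers summed to 1113 to 1426 CPM in kidney disease, against 924 to 1197 CPM in wild type, and 4 rose, with 1117 CPM in kidney disease 6. Without both kidney disease 6 and wild type 7, 8 macrophage, 4 B cell and 3 fibroblast markers rose, where 1.08% of all genes tested were called higher. No marker of these 3 lists was at 0 in a library. Of the 10 ventricular cardiomyocyte markers edgeR called 0, with 3 lower at an unadjusted p under 0.05, where 5.55% of all genes tested were. Their sum was lowest in kidney disease 6, at 107104 CPM. Of the tested markers of T and NK cells, endothelium, smooth muscle and pericytes, atrium, red cells and skeletal muscle, edgeR, DESeq2 and limma-voom called 0, though all 5 red cell markers were lower at an unadjusted p under 0.05 in edgeR, with sums of 310 to 821 CPM in kidney disease, against 558 to 1073 CPM in wild type. Red cell markers summed to 310.2 CPM in kidney disease 6, the lowest of its group, and to 1043 CPM in wild type 7. Atrial markers summed to 29.2 to 1378 CPM in kidney disease, with the lowest in kidney disease 6, against 34.4 to 1169 CPM in wild type, with the highest in wild type 7. Skeletal muscle markers summed to 923 to 1445 CPM in kidney disease, with the highest in kidney disease 6, against 785 to 1198 CPM in wild type, with the lowest in wild type 7. Cd3d and Klrb1c of the T and NK cell list and Myh1 and Myh4 of the skeletal muscle list were at 0 in at least 1 library. The part of these cells in the values of the ribosomal protein genes, and in the ratio of Rpl3l to Rpl3, was not tested.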

How the data were processed

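The deposited tables, 1 per library, list for every gene its unnormalized count, CPM and FPKM. Software named in the submitters' processing notes is bcl2fastq, then STAR 2.7.9a, featureCounts 2.0.3 and Subread, with GRCm38 as the build. The sources used here do not give the counting options, strand included. The deposited CPM and FPKM values were recomputed from the deposited counts and not used further. Symbols and gene types came from GENCODE M21, in which 55227 identifiers were found and 260 were not.

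Low genes were removed by filterByExpr with a minimum count of 10. The rest were scaled by TMM, and edgeR 4.0.16 (R 4.3.3) fitted the quasi-likelihood test with no term but group. Benjamini-Hochberg adjustment covered every tested gene, and calls needed an adjusted p under 0.05. CPM in the text is TMM-scaled. Paralog ratios got an exact permutation test over samples, two-sided. The design text calls the samples biological replicates, and among 49 pairs of libraries within groups the smallest chi-square per degree of freedom was 9.49, so no library was counted as a copy of another. The steps were tested on simulated data. Alternatives were DESeq2 1.42.0, limma-voom (limma 3.58.1), scaling by RLE or the upper quartile, no filter, removal of mitochondrial genes, a gene length offset, a term for the leading gene, a replicate block and leaving out each library. Fits without kidney disease 6 and wild type 7 together, and within the libraries led by each gene, were chosen after seeing the data.

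Members and lists were chosen with earlier results of these data known. Named genes were Col4a5, the members with the smallest p in each direction, the 3 highest and 3 lowest in level, the paralog pairs, the members that did not pass the filter, the ribosomal proteins outside the symbol rule and up to 4 genes of each other list. Rps6, Rps9, Rps14, Rps19, Rps27a, Rpl5, Rpl7, Rpl11, Rpl17, Rpl35, Rpl35a, Rplp0 and Rplp2 fall outside this rule and were picked with their values in view. By name, 1 member and 1 listed gene are not reported here.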

Additional observations from a re-analysis of the deposited data

Results flagged for a closer look

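In 20 of 66 groups searched, 1 animal stood apart from the rest of its own group by more than the limit that chance passes in about 1 in 20 groups, which would be 3.3 groups. In 18 of the 20 the animal was kidney disease 6, and since the genes share that library these are not 18 separate events. It held 1.67% of its counts in the family, where the next kidney disease library held 1.21%, and its median log2 deviation was 0.648. It held 5.77% of nuclear-encoded counts in other genes under 1 kb, where the next held 4.74%. Over all 78 members tested, kidney disease 6 stood apart in 70.

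Among small-subunit members the level in kidney disease 6 was 188.8 CPM for Rps20, 246 CPM for Rps12, 277 CPM for Rps4x, 123 CPM for Rps27, 316 CPM for Rps15 and 40.7 CPM for Rps27l. Among large-subunit members it was 306 CPM for Rpl3l, 7.26 CPM for Rpl13a, 252 CPM for Rpl36, 533 CPM for Rplp1 and 75.5 CPM for Rpl39. Outside the symbol rule it was 275 CPM for Rps3a1, 6.87 CPM for Rpl22l1, 171 CPM for Fau and 328 CPM for Rack1. In each case this was the highest value of the kidney disease group. The other 2 concern Rpl36al, a gene of 25 to 62 counts whose exons overlap another gene on the same strand. It had 0.857 CPM in wild type 5, where the next wild-type library had 0.635 CPM, and its ratio to Rpl36a was 0.0275 in kidney disease 4, where the next kidney disease library had 0.018.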

How the results depend on the processing

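No member was called lower under any of the 27 alternatives. Members called higher numbered 0 in the main analysis, 1 with DESeq2, 1 with the gene length offset and 10 with the leading gene as a term, and 0 to 1 when each library was left out. Over all genes tested, 0.811% were called higher and 0.473% lower. The share called higher was 2.21% with DESeq2, 1.62% with the leading gene term, 0.242% in the libraries led by mt-Co1, 0.00447% in those led by Ttn, and 0.325% (wild type 5) to 0.958% (wild type 7) with 1 library left out. The share called lower was 1.53% with DESeq2, 0.163% with no filter, 1.02% with the length offset, 0.907% with the leading gene term, 1.24% without kidney disease 6 and wild type 7, 0.174% in the libraries led by mt-Co1, 0.00893% in those led by Ttn, and 0.146% (wild type 5) to 0.939% (wild type 7) with 1 library left out. The smaller subsets hold fewer samples; otherwise the cause was not tested. The median change of the members stayed between 0.05 and 0.27.

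The ratio of Rpl3l to Rpl3 differed by -0.44 to -0.36 under 19 alternatives and missed the threshold only in the libraries led by Ttn (-0.37, adjusted p = 0.30, exact permutation test), where it could not pass. Fau was called with the length offset (0.28) and with the leading gene term (0.42). Signs turned only in values that had not passed the test. Rpl3l was at 0.04 in the libraries led by Ttn and Rps10 at 0.12 in those led by mt-Co1. Rpl24 was at -0.07 with limma-voom and -0.08 in the libraries led by mt-Co1, and Rps27l at -0.02 without kidney disease 6 and wild type 7. Rpl7l1 was at 0.02 with the leading gene term, 0.01 in the libraries led by mt-Co1 and 0.04 in those led by Ttn. The ratio of Rpl22l1 to Rpl22 was at -0.06 without kidney disease 6 and wild type 7 and -0.08 in the libraries led by Ttn. With 1 library left out, Rps10 ran from -0.14 to 0.01, Rpl24 from -0.10 to 0.19, Rpl7l1 from -0.09 to 0.01 and the ratio of Rpl22l1 to Rpl22 from -0.06 to 0.07.

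Whether the replicate numbers pair the samples was not settled. Same-numbered libraries of 7 pairs deviated together with correlations from -0.26 to 0.49, and 3 of 7 matched best with their own number. With the replicate block, 0 members were called, their median change was 0.23, 0.321% of all genes were called higher and 0.243% lower, Rpl24 was at -0.04 and the ratio of Rpl22l1 to Rpl22 at -0.01. Under the block the differences were -0.41 for Rpl3l to Rpl3 and -0.27 for Rpl7l1 to Rpl7 (exact permutation over pairs, adjusted p = 0.031 for both), and that for Rps27l to Rps27 passed too (-0.13, adjusted p = 0.031). Depth was not varied. Rpl24 and Rps10 had the fewest counts of the members tested, 7 to 31 and 23 to 61 in a library.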
